A study of Mus musculus with 12 samples.

Results

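The transcripts described here encode 8 cytokines by which T helper cells act on other cells: interferon-gamma (Ifng), IL-4 (Il4), IL-5 (Il5), IL-13 (Il13), IL-3 (Il3), GM-CSF (Csf2), IL-17A (Il17a) and IL-21 (Il21). They were named by gene and not by a cut on measured values, but with earlier results of these data known. With 1 Affymetrix probe set a gene, they are 8 of the 45101 probe sets on each array: 1425947_AT for Ifng, 1449864_AT for Il4, 1450550_AT for Il5, 1420802_AT for Il13, 1450566_AT for Il3, 1427429_AT for Csf2, 1421672_AT for Il17a and 1450334_AT for Il21. The probe set and gene pairs were given for these 8 only, since the deposited table holds probe set identifiers without gene names. Each array measured CD4+ CD25+ spleen T cells of mice, with 3 arrays in each of 4 groups: transgenic Treg cells, C57BL/6 Treg cells, transgenic effector cells and C57BL/6 effector cells.

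Treg cells, the T cells that hold immune responses in check, were sorted directly from spleen. Effector cells were sorted after whole spleen cells had been cultured for 48 hours with anti-CD3, which stimulates T cells through their antigen receptor. The transgenic mice were C57BL/6-2Rbeta-WT/thymus transgenic mice crossed to mice that lack the IL-2 receptor beta chain, and the labels describe their T cells as defective in the IL-2 receptor. The labels name the thymus for the transgene and give no promoter. The C57BL/6 mice were normal animals of that strain, so the C57BL/6 groups carried neither the transgene nor the disrupted gene. An effector array held cells of 1 mouse and a Treg array a pool of 3 to 15 mice. Ages were 15, 14 and 9 weeks for the transgenic effector mice and 10, 14 and 14 weeks for the C57BL/6 effector mice. The transgenic Treg pools were 33, 13 and 7 to 16 weeks old, and the C57BL/6 Treg pools 12, 12 and 10 weeks.

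A naive CD4 T cell that meets antigen can become one of several helper types, each known by the cytokines it secretes. Th1 cells make interferon-gamma, which activates macrophages, and Th2 cells make IL-4, IL-5 and IL-13, which drive antibody class switching, eosinophils and mucus production. Th17 cells make IL-17A, which recruits neutrophils, follicular helper cells make IL-21, which acts on B cells, and many activated T cells make IL-3 and GM-CSF, growth factors of myeloid cells. IL-2 signals through the beta chain and STAT5, and in mouse cells this signal is known to favour Th2 differentiation and to oppose Th17 differentiation.

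Values are log2 intensities from GCRMA, which corrects Affymetrix probes for background, normalizes them and summarizes them to 1 value a probe set. A cytokine was tested if 3 or more arrays read 5 or higher; values below this level are called background here, as a working threshold. Of the 8 cytokines, 5 met this filter: Ifng on 11 arrays, Il17a and Il21 on the 6 effector arrays, and Il4 and Il13 on the 3 C57BL/6 effector arrays alone. Il4 and Il13 thus entered the test through the group in which they were high. Il3 reached the level on 2 arrays, and Il5 and Csf2 on none. The labels of transgenic effector array 3 contradict each other: by its purification entry the cells came fresh from spleen, whereas the title and the tissue entry make it a stimulated effector sample. Most changes that rest on it are also given without it. That array had the lowest transferrin receptor reading of the effector arrays (8.02, against 10.19 and 9.76 on the other transgenic and 9.19 to 10.43 on the C57BL/6 effector arrays). Its Gapdh probe sets differed by 0.21 between the 3′ and 5′ ends, against -0.04 to 0.06 on the other effector arrays. Defining markers of T cells and of other cell types were not looked up here, and neither was the disrupted gene, because only the 8 cytokines were paired with probe sets.

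**Figure D1:**
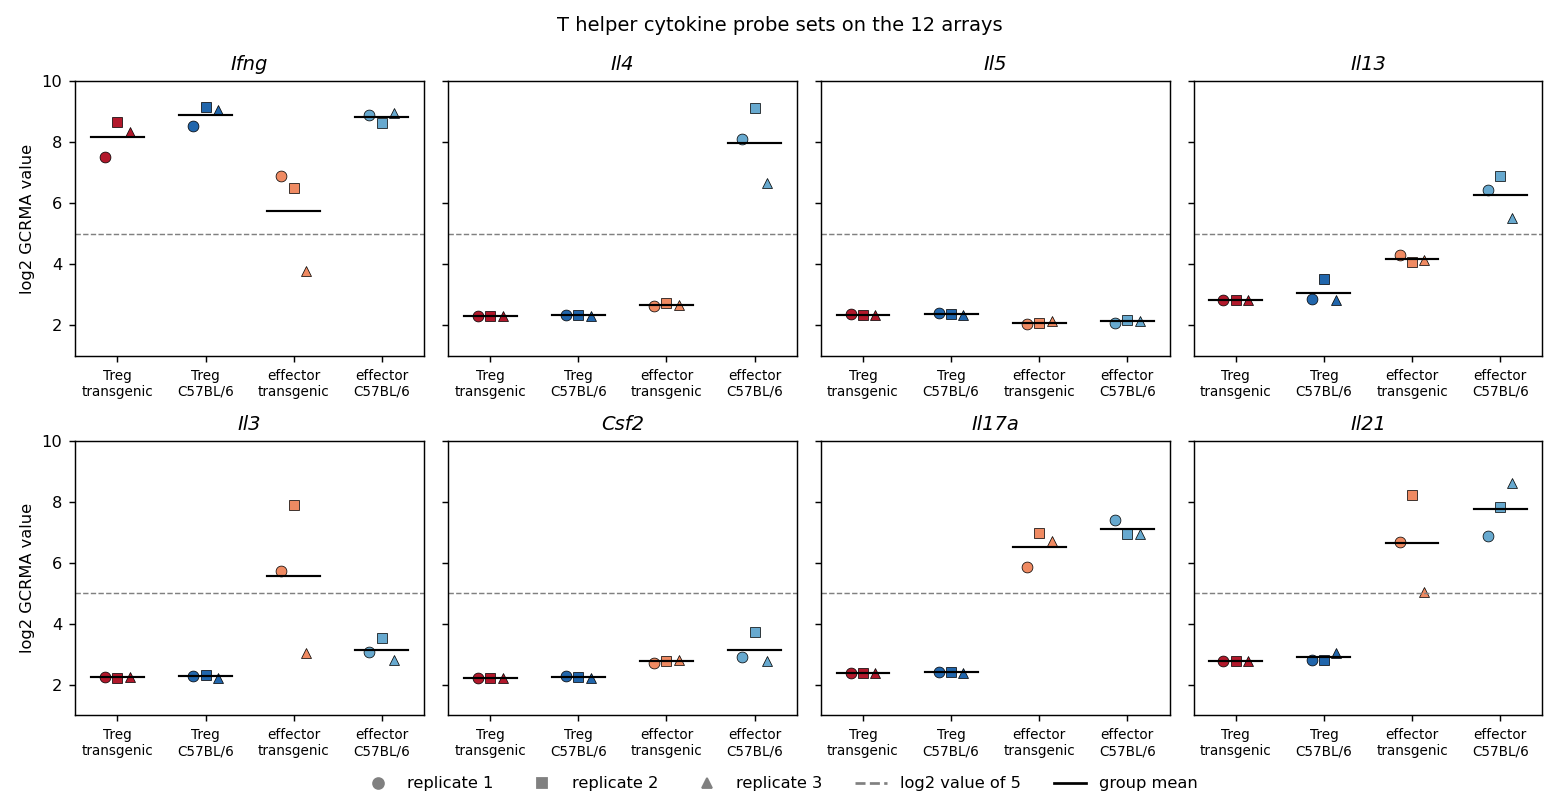
Log2 GCRMA value (vertical axis) of each cytokine probe set on every array, by group (horizontal axis), with a symbol for each replicate, a bar at the group mean and a dashed line at a log2 value of 5. Ifng lies above the line on every array but transgenic effector array 3, Il4 and Il13 lie above it in C57BL/6 effector cells alone, Il17a and Il21 in both effector groups, Il3 on 2 transgenic effector arrays, and Il5 and Csf2 nowhere.

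In activated effector cells, Il4 and Il13 were lower in transgenic than in C57BL/6 mice with and without the filter on low values, and Ifng was lower with it. Without a filter, limma called 2 of the 8 cytokines, Il4 (adjusted p = 0.000237) and Il13 (0.00797), and 0.77% of all 45037 probe sets. With the filter it called 3 of the 5 tested cytokines lower, among which Il4 and Il13 had passed through their C57BL/6 values, so their direction was fixed by the filter and the count of 3 is a description. None of the 5 was called higher, and before adjustment 4 of the 5, with Il17a as the fourth, had a p under 0.05. Across all 18271 tested probe sets, 1.08% were called lower in this comparison and 1.92% higher (limma, Benjamini-Hochberg adjusted p under 0.05). The median change of all tested probe sets was -0.01 on the log2 scale. The test compares single mice, 3 against 3, so the smallest two-sided p of an exact permutation test would be 0.1. The arrays are bulk samples in which fewer cytokine-producing cells and less transcript per cell cannot be told apart.

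Il4, the cytokine that both marks and induces Th2 cells, showed the widest separation. Its log2 values were 2.63, 2.74 and 2.68 on the transgenic effector arrays, against 8.11, 9.13 and 6.66 on the C57BL/6 effector arrays. Every transgenic array lay in the background range and every C57BL/6 array well above it, and the groups did not overlap, as was the case in this direction for 10.1% of all tested probe sets. The C57BL/6 readings were higher than 79.9%, 86.1% and 72.7% of the probe sets of their arrays, and the transgenic readings higher than 34.7%, 37.4% and 33.1%. The log2 change was -5.29 with a standard error of 0.44 (39.0-fold lower, limma adjusted p = 7.44e-05), the 6th largest fall among all tested probe sets. Since the transgenic values lie in the background range, the size of this fold depends on the background correction. When every value below 5 was raised to 5, Il4 fell by 2.97 on the log2 scale. Every array outside the C57BL/6 effector group then read 5, so this gives a size and no further test. With 1 array left out at a time, the change ranged from -5.94 to -4.71 and stayed past the threshold each time. The Il4 change was -5.29 without transgenic array 3. These fits kept the probe sets filtered on all 12 arrays. Without any 1 of the C57BL/6 effector arrays Il4 would have missed the filter, so those fits give a size and no further test.

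Il13, a Th2 cytokine that acts on epithelium and smooth muscle and whose gene lies next to Il4, was lower as well. It read 4.30, 4.06 and 4.13 on the transgenic effector arrays, against 6.42, 6.91 and 5.53 on the C57BL/6 effector arrays, without overlap. The log2 change was -2.12 with a standard error of 0.31 (4.34-fold lower, limma adjusted p = 0.00332). The transgenic values lie below 5 here too, so the size of the fold depends on the background correction. With values below 5 raised to 5 the change was -1.28, again a size and no further test. Without transgenic array 3 the Il13 change was -2.10 (limma adjusted p = 0.0119). In the fit to the 6 effector arrays alone the adjusted p was 0.0567 for Il13 and 0.0194 for Il4. The C57BL/6 mice kept the same order for both transcripts, with array 2 highest and array 3 lowest. Il3 and Csf2 had this order too, at values below 5. Over the 6 effector arrays the log2 values of Il4 and Il13 had a Pearson r of 0.99, and over all 12 arrays 0.95. These correlations are descriptions: the strain difference spans the points, which also share their normalization. Over the 12 arrays Il13 ranked 12th among all tested probe sets in likeness to Il4. The probe set most like Il4 over the 12 arrays was 1419136_AT (r = 0.996), for which no gene name was given.

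Il5, the eosinophil growth factor of the same Th2 group, was at background on every array. It read 2.04, 2.08 and 2.13 on transgenic and 2.07, 2.18 and 2.16 on C57BL/6 effector arrays, and the groups overlapped. Without a filter on low values its log2 change was -0.05 with a 95% interval from -0.13 to 0.02 (limma adjusted p = 0.966). A transcript below the background of this probe set would not be seen, so no difference in Il5 was detectable here.

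In mice, 5 of the 8 genes lie on chromosome 11. By RefSeq order Il4 and Il13 are neighbours with no protein-coding gene between them, 1 such gene (Rad50) separates Il13 from Il5, 6 separate Il5 from Csf2, and Csf2 and Il3 are neighbours. In effector cells Il4 and Il13 were lower in transgenic mice, whereas Il3 read higher on 2 of the 3 transgenic arrays. Il5 and Csf2 stayed below a log2 value of 5 in both strains, so they do not show whether they share either pattern. Among the C57BL/6 effector arrays Il4, Il13, Il3 and Csf2 all read highest on array 2 and lowest on array 3. Il3 and Csf2 lay below 5 there, and Il5 was lowest on array 1. The 250 bases before the gene starts of Il4 and Il13, whose readings moved together, and of their neighbour Il5, which stayed at background, are shown from RefSeq (GRCm38.p6), with capitals for GGAAA or TTTCC, the core bound by NFAT and Ets factors, which carry T cell receptor signals to cytokine genes.
Il4, chr11:53618666-53618915, minus strand: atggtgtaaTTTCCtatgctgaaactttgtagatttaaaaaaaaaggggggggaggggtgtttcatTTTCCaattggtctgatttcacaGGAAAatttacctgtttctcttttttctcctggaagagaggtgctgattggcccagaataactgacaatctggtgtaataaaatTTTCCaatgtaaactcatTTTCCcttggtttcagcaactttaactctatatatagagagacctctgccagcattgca
Il13, chr11:53634703-53634952, minus strand: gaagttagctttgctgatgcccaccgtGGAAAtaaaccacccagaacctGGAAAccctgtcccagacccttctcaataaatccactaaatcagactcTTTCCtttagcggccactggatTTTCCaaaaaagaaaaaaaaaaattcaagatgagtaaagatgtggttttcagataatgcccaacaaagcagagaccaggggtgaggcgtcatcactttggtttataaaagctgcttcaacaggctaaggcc
Il5, chr11:53720544-53720793, plus strand: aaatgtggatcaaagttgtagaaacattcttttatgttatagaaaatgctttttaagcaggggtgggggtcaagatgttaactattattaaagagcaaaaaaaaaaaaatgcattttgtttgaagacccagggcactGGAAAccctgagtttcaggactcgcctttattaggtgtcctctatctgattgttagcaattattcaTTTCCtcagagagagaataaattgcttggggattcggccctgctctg
The core, searched on both strands, matched 5 times before Il4, 4 times before Il13 and 2 times before Il5. At least 1 match was found in 55.6% of all 32851 promoter windows of this length, at least 4 in 1.59% and at least 5 in 0.39%. It was present before 7 of the 8 cytokine genes, all but Il17a. Neither AP-1 (TGANTCA) nor STAT (TTCNNNGAA) letters occurred in the windows of Il4, Il13 or Il5, and over all windows 6.75% held the AP-1 letters and 7.02% the STAT letters. TATAAA, searched on both strands, matched before Ifng, Il13 and Il17a and in 12.4% of all windows, and GATA matched before 7 of the 8 genes, all but Il4, and in 53.6% of all windows. The match is one of letters only, and these arrays did not measure binding.

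**Figure D2:**
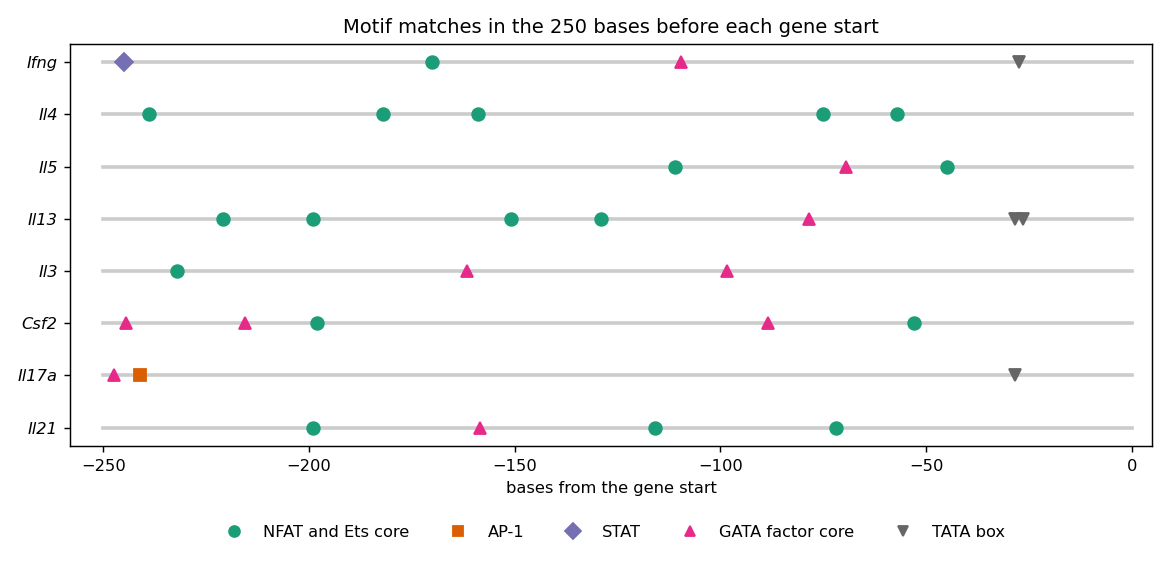
Position of each motif match in bases from the gene start (horizontal axis) in the 250 bases before the 8 cytokine genes (rows), with a symbol for each motif. Il4 has 5 and Il13 has 4 matches of the NFAT and Ets core, and the only STAT match lies before Ifng, 249 to 241 bases before the start.

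Ifng, the Th1 cytokine, was abundant in C57BL/6 effector cells and lower in transgenic ones. It read 6.90, 6.49 and 3.78 on the transgenic effector arrays, against 8.88, 8.64 and 8.96 on the C57BL/6 effector arrays. The groups did not overlap. The transgenic mice differed widely among themselves, with array 3 at background and the other arrays above it. The log2 change was -3.10 with a standard error of 0.64 (8.58-fold lower, limma adjusted p = 0.0254). Without transgenic array 3, the one with the contradictory label, the change was -2.13 (limma adjusted p = 0.00573). The call was lost when any 1 of the 3 C57BL/6 effector arrays was left out (limma adjusted p = 0.0971 without array 1, 0.0839 without array 2 and 0.0657 without array 3), without a filter (0.072) and in the fit to the 6 effector arrays alone (0.158). The promoter window of Ifng is the one of the 8 that held the STAT letters, shown here in capitals with its single NFAT and Ets core.
Ifng, chr10:118440796-118441045, plus strand: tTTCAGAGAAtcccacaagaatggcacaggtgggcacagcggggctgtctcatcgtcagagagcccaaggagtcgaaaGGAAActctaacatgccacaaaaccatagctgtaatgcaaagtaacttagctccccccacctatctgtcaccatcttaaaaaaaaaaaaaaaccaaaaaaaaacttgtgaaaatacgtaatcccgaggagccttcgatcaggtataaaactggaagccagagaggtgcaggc

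**Figure D3:**
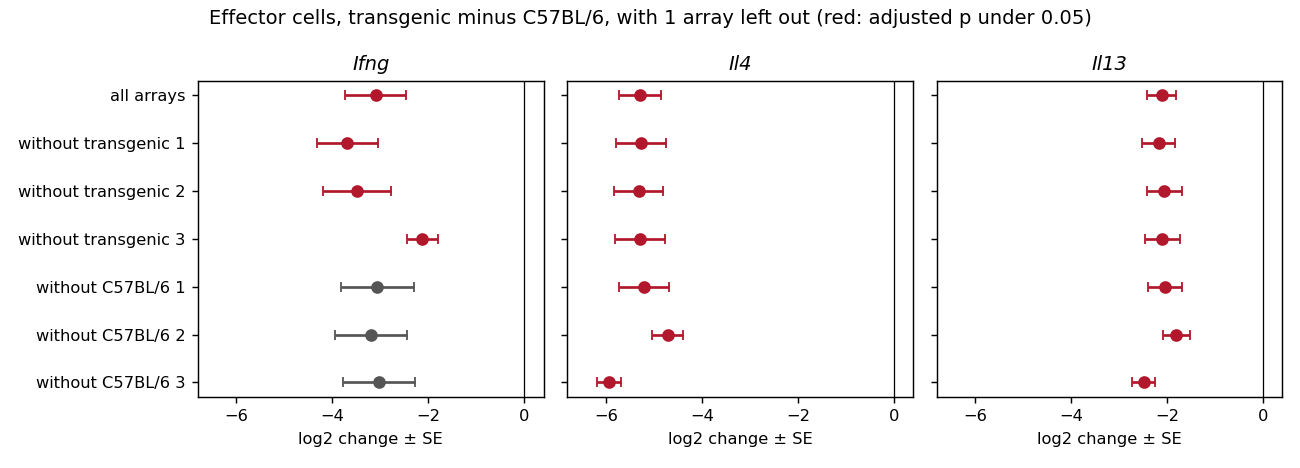
Log2 change in effector cells, transgenic minus C57BL/6, with its standard error (horizontal axis) for Ifng, Il4 and Il13, with all arrays and with each effector array left out in turn (rows); red marks an adjusted p under 0.05. Ifng moves to -2.13 without transgenic array 3 and loses its call without any of the C57BL/6 arrays, while Il4 and Il13 keep theirs throughout. The filter was not redone, and without any of the C57BL/6 arrays Il4 and Il13 would have missed it.

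Il17a, the defining Th17 cytokine, was well above background in both strains. It read 5.85, 6.97 and 6.71 on the transgenic effector arrays, against 7.39, 6.95 and 6.94 on the C57BL/6 effector arrays, and the groups overlapped. The log2 change was -0.58 with a 95% interval from -1.14 to -0.03, and it did not pass the test (limma adjusted p = 0.301). Its standard error of 0.25 also draws on Treg arrays at background, and it was 0.32 with the effector arrays alone. Il21, which supports B cells and follicular helper cells, read 6.68, 8.21 and 5.05 on the transgenic and 6.89, 7.81 and 8.60 on the C57BL/6 effector arrays. These groups overlapped too, and the log2 change was -1.12 with an interval from -2.52 to 0.27 (limma adjusted p = 0.451). The standard error of Il21 was 0.64, and 0.84 with the effector arrays alone. The change of Il21 was -0.33 without transgenic array 3 and -1.91 without transgenic array 2, the ends of its range with 1 array left out. That of Il17a was -0.68 without transgenic array 3. The intervals leave room for falls of more than 2-fold in both transcripts.

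Il3, a growth factor of mast cells, basophils and myeloid progenitors, was the only cytokine of the 8 with a higher mean in transgenic effector cells. It read 5.74, 7.89 and 3.04 on the transgenic arrays, against 3.08, 3.52 and 2.82 on the C57BL/6 arrays. Transgenic arrays 1 and 2 stood above every C57BL/6 array, and transgenic array 3 lay among them. The mean difference was 2.42 on the log2 scale, 3.67 without transgenic array 3 and 1.25 without transgenic array 2. Il3 was above a log2 value of 5 on too few arrays for the main test. Without a filter the 95% interval ran from 0.50 to 4.34 and the difference did not pass the test (limma adjusted p = 0.457). Csf2, its neighbour on the chromosome and likewise a myeloid growth factor, read 2.73, 2.77 and 2.82 on the transgenic and 2.91, 3.73 and 2.80 on the C57BL/6 effector arrays, all near background (limma adjusted p = 0.791 without a filter).

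**Figure D4:**
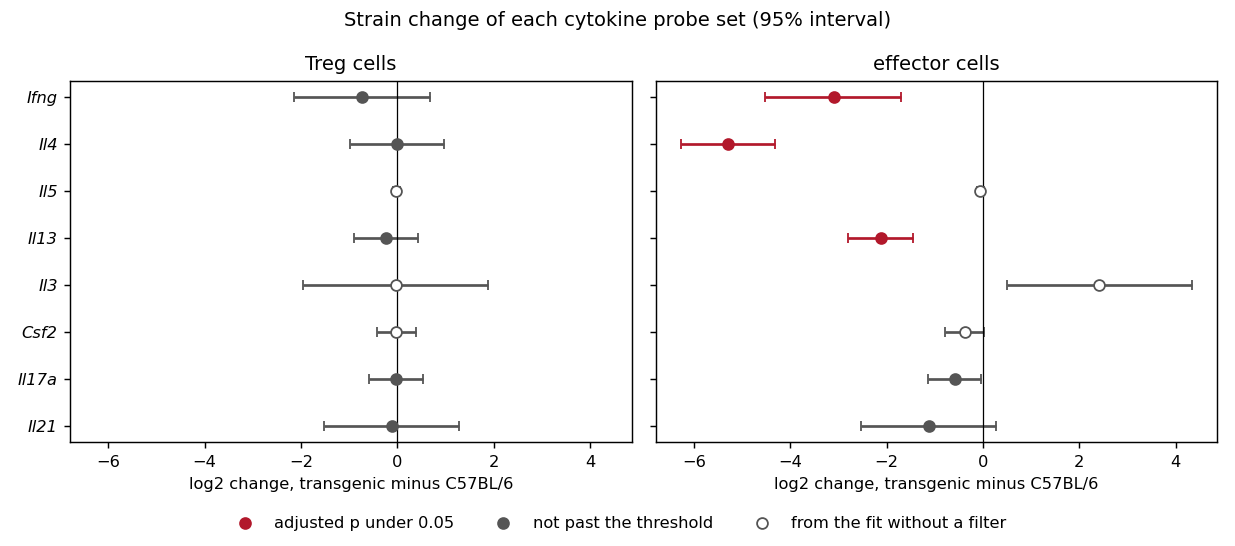
Log2 change, transgenic minus C57BL/6, with its 95% interval (horizontal axis) for each cytokine (rows) in Treg cells (left) and effector cells (right); red marks an adjusted p under 0.05 and open points come from the fit without a filter. In effector cells Il4, Ifng and Il13 lie at -5.29, -3.10 and -2.12 and Il3 at 2.42, while every Treg interval spans 0.

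**Figure D5:**
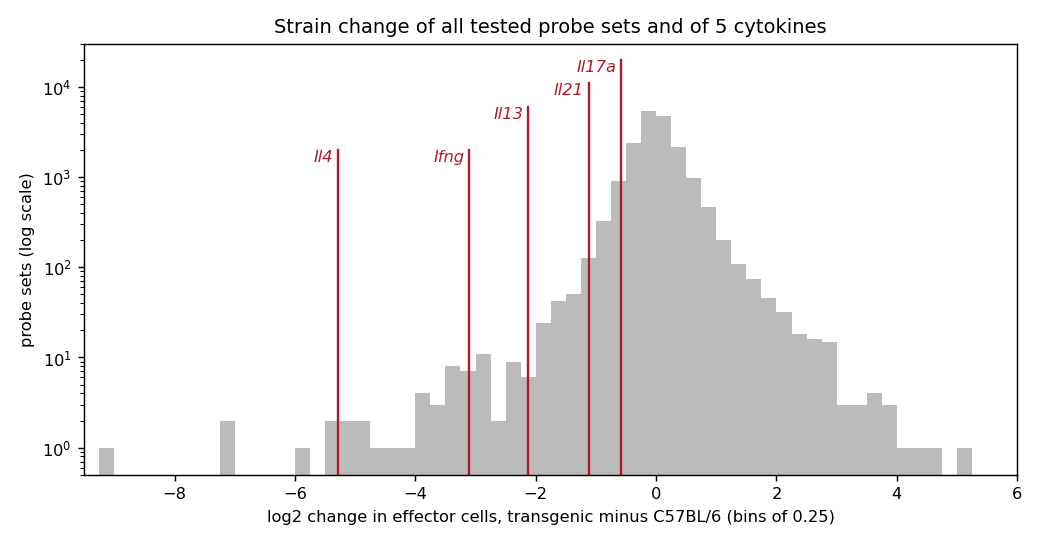
Number of probe sets (vertical axis, log scale) by log2 change in effector cells, transgenic minus C57BL/6 (horizontal axis), for all 18271 tested probe sets, with lines at the 5 tested cytokines. Il4, at -5.29, is the 6th largest fall, Ifng the 33rd and Il13 the 62nd.

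Several of the cytokines above background varied widely between mice of one group. In transgenic effector cells the SD over the 3 arrays was 1.69 for Ifng and 1.58 for Il21 on the log2 scale, larger than for 99.6% and 99.4% of the tested probe sets, whose median SD was 0.25. Il3 had an SD of 2.43 there. Without transgenic array 3, the SD over the other arrays was 0.28 for Ifng, 1.08 for Il21 and 1.52 for Il3, larger than for 81%, 99.7% and 99.9% of the tested probe sets, whose median SD was then 0.12. Il4, Il5, Il13 and Csf2, all below 5 in transgenic effector cells, had SDs of 0.05 to 0.12 over the 3 arrays, under the median. In C57BL/6 effector cells the SD was 1.24 for Il4, 0.85 for Il21 and 0.70 for Il13, larger than for 99.7%, 98.2% and 96.7% of the tested probe sets, with a median SD of 0.16. Ifng in C57BL/6 effector cells, with an SD of 0.17, was close to that median. The mice did not share an order across cytokines: among the transgenic arrays, array 3 was lowest for Ifng, Il21 and Il3, but array 1 was lowest for Il17a. Among the C57BL/6 arrays, array 3 was lowest for Il4, Il13 and Il17a, and for Il3 and Csf2 at values below 5, but highest for Il21 and Ifng. The model uses 1 residual variance per probe set for all groups, so the standard error of Il4 combines this wide C57BL/6 spread with the narrow spread of values at background.

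In Treg cells, Ifng was the only one of the 8 cytokines above background. It read 7.53, 8.65 and 8.34 in transgenic Treg cells, against 8.53, 9.13 and 9.05 in C57BL/6 Treg cells. These values were higher than 78.1% to 88.7% of the probe sets of their arrays. The groups overlapped, and the log2 change was -0.73 (SE 0.64), with an interval from -2.15 to 0.68 (limma adjusted p = 0.86). Transgenic effector array 3 enters this standard error through the shared variance. Without that array the SE was 0.28 (limma adjusted p = 0.342). The lowest reading came from transgenic Treg array 1, the pool of 33-week-old mice, and the part of age in it was not tested. Sorted CD4+ CD25hi cells were 99.4% to 99.9% pure by the labels, which give no value for C57BL/6 Treg array 3.

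The other 7 cytokines read 2.22 to 3.53 on all 6 Treg arrays. The single value above 3.06 was Il13 on C57BL/6 Treg array 2, at 3.53. None of the 5 tested cytokines passed the test between strains in Treg cells, where limma called 0.805% of all tested probe sets lower and 0.389% higher. Before adjustment 0 of the 5 had a p under 0.05 in the main fit, and with array weights the count of calls was 0 too. For Il4, Il13, Il17a and Il21 both groups lay at background, so no difference was detectable in Treg cells.

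Whether the strain changed a cytokine differently in Treg than in effector cells was tested directly. The difference of the strain changes, Treg minus effector, was 5.28 ± 0.63 (SE) for Il4 (limma adjusted p = 0.00155), the 4th largest positive difference of all tested probe sets. It was 1.88 ± 0.43 (SE) for Il13 (limma adjusted p = 0.0495). Among all tested probe sets 0.744% were called in this direction. When the pairing of the Treg arrays by replicate number entered the model as a block, Il13 no longer passed (limma adjusted p = 0.0606), and with 1 array left out at a time it passed in 1 of 12 fits. For both genes this difference compares an effector change with Treg values that lay at background in both strains. For Ifng the difference was 2.37 with an interval from 0.37 to 4.37 (limma adjusted p = 0.276), for Il21 1.01 (0.698) and for Il17a 0.56 (0.563), none past the threshold. Without transgenic effector array 3 the difference was 1.40 for Ifng and 0.21 for Il21 (limma adjusted p = 0.153 and 0.942).

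Setting fresh Treg cells against activated effector cells, Il4, Il13, Il17a and Il21 were lower in Treg cells of C57BL/6 mice, while Ifng was at a like level. The mean log2 values were 2.33 ± 0.03 in Treg and 7.97 ± 1.24 in effector cells for Il4, 3.07 ± 0.40 and 6.28 ± 0.70 for Il13, 2.41 ± 0.03 and 7.09 ± 0.26 for Il17a, and 2.90 ± 0.14 and 7.77 ± 0.85 for Il21 (SD, n = 3). The log2 differences were -5.64, -3.21, -4.68 and -4.87 (limma adjusted p from 2.96e-08 to 3.06e-05). These transcripts passed the filter through effector arrays alone, so the direction was fixed by the filter and is a description. All these Treg values lie at background, and with values below 5 raised to 5 the differences were -2.97, -1.28, -2.09 and -2.77. Every Treg value then equals 5, so these give a size and no further test. This comparison called 42% of all tested probe sets lower and 31.7% higher, so being called says little about a single transcript. Ifng averaged 8.90 ± 0.32 in Treg and 8.83 ± 0.17 in effector cells, a log2 difference of 0.08 with an interval from -1.34 to 1.49 (limma adjusted p = 0.916). Its standard error was 0.64, and 0.28 without transgenic effector array 3, which enters through the shared variance. Population goes with culture, pooling of mice and the run inferred from the provider's sample codes, which cannot be told apart here. The lowest value on an array was 0.94 to 0.96 on Treg and 0.30 to 0.33 on effector arrays, so levels set across the populations may carry a scale difference. Il5 shows this at background, at 2.33 to 2.39 on the 6 Treg and 2.04 to 2.18 on the 6 effector arrays.

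In transgenic mice the same comparison placed Ifng higher in Treg cells, at 8.17 ± 0.58, than in effector cells, at 5.73 ± 1.69 (SD, n = 3). The log2 difference was 2.45 ± 0.64 (SE; limma adjusted p = 0.00524), and it was 1.48 without transgenic effector array 3 (limma adjusted p = 0.00183). All tested probe sets were called higher in 30% and lower in 40%. Il17a and Il21 were lower in transgenic Treg than in transgenic effector cells, by -4.12 and -3.86 (limma adjusted p = 8.16e-08 and 0.000212). Without transgenic effector array 3 these differences were -4.02 and -4.66. Both transcripts passed the filter through effector arrays alone, so this direction is a description. The Treg values lie at background here as well, and with values below 5 raised to 5 the differences were -1.51 and -1.64. Every Treg value then equals 5, so these give a size and no further test. Il4 averaged 2.31 ± 0.01 in Treg and 2.68 ± 0.06 in effector cells, with no call (limma adjusted p = 0.48), both at background. The fit to the arrays of this comparison alone did call Il4 (-0.37, limma adjusted p = 0.0134). Il13 differed by -1.33 (limma adjusted p = 0.00219), but both groups lay below a log2 value of 5, and the difference was -0.00 with values below 5 raised to 5. These population comparisons use the arrays of the strain comparisons, so they are not independent of them.

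By mean level the 4 groups ran in different orders for different cytokines. For Ifng the order was C57BL/6 Treg (8.90), C57BL/6 effector (8.83), transgenic Treg (8.17) and transgenic effector cells (5.73). There was no call between the Treg groups or between the C57BL/6 groups. Transgenic Treg and C57BL/6 effector cells were not compared by a test. For Il17a and Il21 the order was C57BL/6 effector, transgenic effector and then both Treg groups at background, with no call between the effector groups. For Il4 and Il13 only C57BL/6 effector cells stood above background, and for Il3 only transgenic effector cells, with a mean of 5.56 ± 2.43 (SD, n = 3). The tested probe set most like Ifng over the 12 arrays was 1443086_AT (r = 0.929), and for Il13, Il17a and Il21 the highest correlations were 0.987, 0.997 and 0.992. The table does not pair these probe sets with genes, and the difference between the populations spans most of these correlations.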

How the data were processed

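Affymetrix mouse arrays were hybridized with RNA of sorted T cells after a single amplification, per the labels' protocols. The deposited values are log2 intensities made with GCRMA, per the submitters' processing notes, which name no version. The members and lists were chosen with earlier results of these data known. Groups and replicate numbers follow the sample titles, and the series' design text calls the 3 arrays of a group biological replicates. The titles and descriptions of 2 effector arrays disagree on the number.

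After 64 control probe sets had been removed, 45037 remained, of which 18271 read 5 or higher (log2) on 3 or more arrays and were tested. The fit used limma 3.58.1 (R 4.3.3) on the 12 arrays together, with a mean for each of the 4 groups (eBayes with trend, Benjamini-Hochberg over all tested probe sets, threshold 0.05). The number of arrays limits the precision. On data simulated for the effector comparison, the fit to 18271 probe sets recovered 41.8% of changes of 1 log2 unit and 92.5% of changes of 2. Of its 161 calls, 9 were false. The simulation gave each probe set the same SD in all groups, whereas the cytokines' SDs differ between groups, so these shares need not hold for them.

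Deviations from the group means of same-numbered transgenic and C57BL/6 Treg arrays correlated at 0.58, 0.102 and 0.51 across probe sets. Each is over 0.1, the level set for pairing. Differently numbered Treg arrays ran from -0.541 to 0.114, so 0.102 does not set its pair apart. The pairing entered alternative fits as a block, and the main fit left it out. It comes from the data, not from the labels.

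As alternatives, the normalization, filter, variance model and set of arrays were varied, and blocks were added for replicate number and for runs inferred from the provider's sample codes; the other alternatives were a ratio without a test, leaving out each array, and 2 settings chosen after seeing the data (values below 5 raised to 5, and a block in Treg cells alone). The rule for named genes was all 8 cytokines in full, and the 3 probe sets most like each tested one, of which only the closest are given, and only some by identifier. The 7 gene lists and 7 marker lists written for this work were not tested, since no gene names were paired with other probe sets. Promoter windows of all 8 genes came from RefSeq (GRCm38.p6). Figures were drawn with matplotlib 3.10.9.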

Additional observations from a re-analysis of the deposited data

Results flagged for a closer look

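The strain changes of Il4 and Il13 were called different between Treg and effector cells by the test of the difference itself. Both Treg groups lay at background for these cytokines, so the difference carries little beyond the effector change. Its direction, like that of the effector change, was fixed by the filter. For Il4 the difference, Treg minus effector, was 5.28 on the log2 scale (limma adjusted p = 0.00155), from a change of -0.01 in Treg cells and of -5.29 in effector cells. For Il13 it was 1.88 (limma adjusted p = 0.0495), from changes of -0.24 in Treg cells and of -2.12 in effector cells. The Il13 call was lost with a replicate block in Treg cells alone (limma adjusted p = 0.0606) or in both populations (0.0716), with a block for the inferred run (0.158) and without a filter (0.1). With 1 array left out at a time it was kept in 1 of 12 fits, and the Il4 call in 12 of 12. The filter was not redone in these fits, and both genes would have missed it without any 1 of the C57BL/6 effector arrays.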

How the results depend on the processing

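The Il4 and Il13 falls in effector cells kept their direction under every alternative that tested them, and Il4 kept its call in all of them. In all but the fit without a filter that direction was fixed in advance, because both had entered through their C57BL/6 effector values. The fit without a filter called both. Fits with 1 array left out kept the probe sets filtered on all 12 arrays. Neither Il4 nor Il13 reached a log2 value of 7 on 3 arrays, so a filter at that level left 2 cytokines in the test. Of the 3 calls in effector cells, 1 was left with the filter at 7 and 1 with the effector arrays alone, and 2 to 3 with 1 array left out. The 2 calls in the difference of strain changes became 1 without a filter, 1 without a variance trend, 1 with values below 5 raised to 5, 1 with a block for the inferred run, 1 with a replicate block in both populations, 1 with that block in Treg cells alone, 0 with the filter at 7, and 1 to 2 with 1 array left out. A ratio of at least 2 without a test gave 4 there. The replicate block left the 3 effector calls and the 0 Treg calls as they were, and same-numbered effector arrays correlated at 0.21, -0.34 and -0.34, so they share only a number. Between populations, the 4 calls in C57BL/6 mice became 1 with the filter at 7. In transgenic mice the 4 calls became 2 with that filter and 7 without a filter, where background probe sets enter. They became 3 with values below 5 raised to 5, where Il13 was lost, and 5 with the arrays of the comparison alone, where Il4 was added. With array weights the Ifng difference of strain changes passed (1.61, adjusted p = 0.0468), and Il21 turned to 0.15 in effector cells and to -0.19 in the difference of strain changes. Other turns of direction were in uncalled values near 0: Il4 in Treg cells at 0.07 and Il17a at 0.05 with centred arrays, Il4 at 0.01 with quantile normalization, and Ifng between C57BL/6 populations at -0.02 without effector array 2 and -0.04 without Treg array 2, within a range of -0.04 to 0.26 with 1 array left out. The cause of these moves was not tested, beyond the smaller number of cytokines or arrays in a fit. Over all tested probe sets the calls ranged from 223 (effector arrays alone) to 3033 (array weights) around 547 in effector cells, from 74 (Treg arrays alone) to 1232 (array weights) around 218 in Treg cells, and from 214 (without C57BL/6 Treg array 2) to 2529 (array weights) around 413 for the difference. Signal over background limits Il5, Csf2 and, in Treg cells, all but Ifng.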
